A study of Mus musculus with 6 samples.

Results

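The 10 genes described here encode chemokine ligands: Ccl2, Ccl3, Ccl4, Ccl6, Ccl7, Ccl9, Ccl12, Cxcl2, Cxcl10 and Cxcl16. They were taken by name from the deposited RNA table, and all 10 were among its 19848 genes. The table covers 13052 immune cells from mouse brain, read by CITE-seq, in which RNA and antibody tags are sequenced from the same single cells. All mice were female C57BL/6, and 24 of them, 6 per group, gave 12 pools, 3 in each of the 4 groups. Young control mice (12 weeks) and aged control mice (72 weeks) received vehicle and kept their gut microbiota. Young antibiotic and aged antibiotic mice of the same ages had it depleted by antibiotics. Brains were taken whole after perfusion, digested with a papain-based kit and enriched for mononuclear cells on a percoll gradient. All young pools shared 1 well of the 10x Genomics run and all aged pools another, so age and well cannot be told apart. Within each well the hashtags (antibodies that mark the pool) were numbered 1 to 3 for control and 4 to 6 for antibiotic pools, so the arm and the hashtag cannot be told apart either. The labels do not tie mice to pools, and p-values measure the spread between pools.

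Chemokines are small secreted proteins that bind G-protein-coupled receptors and guide the movement of leukocytes. In the brain, microglia and the macrophages of the meninges, perivascular spaces and choroid plexus are known sources, and circulating monocytes, neutrophils and lymphocytes carry the matching receptors. Many chemokine genes are switched on quickly through NF-kB, and some, such as Cxcl10, through interferon signalling as well.

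The ligands are ordered here by receptor and family. Ccl2, Ccl7 and Ccl12 bind Ccr2, the receptor of inflammatory monocytes. Ccl3 and Ccl4, the macrophage inflammatory proteins, attract monocytes and T cells, and Ccl3 binds Ccr1. Ccl6 and Ccl9 are mouse ligands of Ccr1. Cxcl2 binds Cxcr2, the main neutrophil chemokine receptor, and Cxcl10 binds Cxcr3 of activated T cells and NK cells. Cxcl16 binds Cxcr6 and is made as a transmembrane protein that the protease Adam10 sheds. On the GRCm38.p6 assembly of RefSeq, 8 of the 10 genes lie on chromosome 11. Ccl2 (chr11:82035577-82037452), Ccl7 (chr11:82045712-82047525) and Ccl12 (chr11:82101845-82103399) are neighbours, as are Ccl9 (chr11:83572917-83578636), Ccl6 (chr11:83587886-83593087), Ccl3 (chr11:83647843-83649378) and Ccl4 (chr11:83648624-83664683). Cxcl16 stands alone at chr11:70454389-70459984, and Cxcl2 (chr5:90903899-90905938) and Cxcl10 (chr5:92346638-92348889) lie on chromosome 5. All are protein-coding genes, and each interval is the whole gene with its exons, introns and UTRs. The gene models of Ccl3 and Ccl4 overlap on opposite strands, and the labels do not say whether counting used strand, which leaves a shared part of their values uncertain.

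RefSeq promoters (the 250 bases before the gene start, GRCm38.p6) were at hand for 6 of the 10 genes. Those of Ccl3, Cxcl2 and Cxcl10 are shown because these ligands had different cell types at the top of their levels and bind different receptors. They are written 5′ to 3′ in the direction of the gene (Cxcl2 on the plus strand, Ccl3 and Cxcl10 on the minus strand), in lower case, and capitals mark matches to 3 motifs searched on both strands, the NF-kB consensus, the interferon-stimulated response element (ISRE, GAAANNGAAA) and the AP-1 element (TGANTCA).
Ccl3 (chr11:83649379-83649628): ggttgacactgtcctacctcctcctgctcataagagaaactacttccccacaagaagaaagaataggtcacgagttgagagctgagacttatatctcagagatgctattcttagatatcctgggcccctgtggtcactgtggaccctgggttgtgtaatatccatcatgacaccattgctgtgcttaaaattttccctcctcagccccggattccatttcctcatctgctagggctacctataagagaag
Cxcl2 (chr5:90903649-90903898): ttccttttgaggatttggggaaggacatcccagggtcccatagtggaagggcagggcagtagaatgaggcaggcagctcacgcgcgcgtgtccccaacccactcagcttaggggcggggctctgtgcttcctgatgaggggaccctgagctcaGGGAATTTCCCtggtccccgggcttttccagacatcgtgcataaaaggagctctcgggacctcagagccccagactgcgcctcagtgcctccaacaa
Cxcl10 (chr5:92348890-92349139): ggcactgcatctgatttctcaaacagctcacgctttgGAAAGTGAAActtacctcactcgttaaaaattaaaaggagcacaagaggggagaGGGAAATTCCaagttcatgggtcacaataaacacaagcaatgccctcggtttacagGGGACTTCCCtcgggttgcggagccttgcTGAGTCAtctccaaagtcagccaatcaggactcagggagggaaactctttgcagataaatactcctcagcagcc
The Cxcl2 promoter held 2 overlapping NF-kB matches, 1 on each strand, at bases -97 to -87 from the start. The Cxcl10 promoter held an ISRE match at -213 to -204, NF-kB matches at -159 to -150 and -103 to -94, and an AP-1 match at -74 to -68. None of the 3 motifs was found in these letters of the Ccl3 promoter. Over the 6 promoters an NF-kB match was found in 3 (Ccl9, Cxcl2 and Cxcl10), an ISRE match in 1 and an AP-1 match in 2. Among all 32536 promoters of this length, 3.92% held an NF-kB match, 2.98% an ISRE match and 6.73% an AP-1 match. A match is a run of letters and was not tested for binding.

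RNA values are SCTransform-corrected UMI values per cell, and a pool's value is the mean over its cells of 1 type. They count reads near the 3′ end and not per length, so each gene is compared with itself across types and groups and not with another gene. Pools held 760 to 1590 cells and 5745242 to 13742781 raw UMIs, and microglia had a median of 6411 to 7304 raw UMIs by pool. The 2 wells shared 59 cell barcodes. The authors' cell types were checked against marker genes. Every marker was highest in its own type for microglia (6 of 6), Ly6C+Ly6G+ cells (7 of 7 neutrophil markers), Ly6CHigh cells (5 of 5 classical monocyte markers) and B cells (5 of 5). Markers of border-associated macrophages (BAM) were highest there for 5 of 6 genes. Ly6CLow cells were highest for 4 of 5 non-classical monocyte markers and 4 of 5 dendritic cell markers, so their label covers more than 1 kind of cell.

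Levels across cell types divided the ligands into those highest in microglia, in BAM and in myeloid cells of the blood lineage, described here without a test, from 9 types and pools with at least 10 cells of the type. Ccl3 and Ccl4 had their highest mean in microglia, and Ccl2, Ccl7, Ccl12 and Cxcl16 in BAM. Ccl6 and Ccl9 were highest in Ly6CHigh cells and Cxcl2 in Ly6C+Ly6G+ cells, while Cxcl10 had 3 types at the same level.

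**Figure D1:**
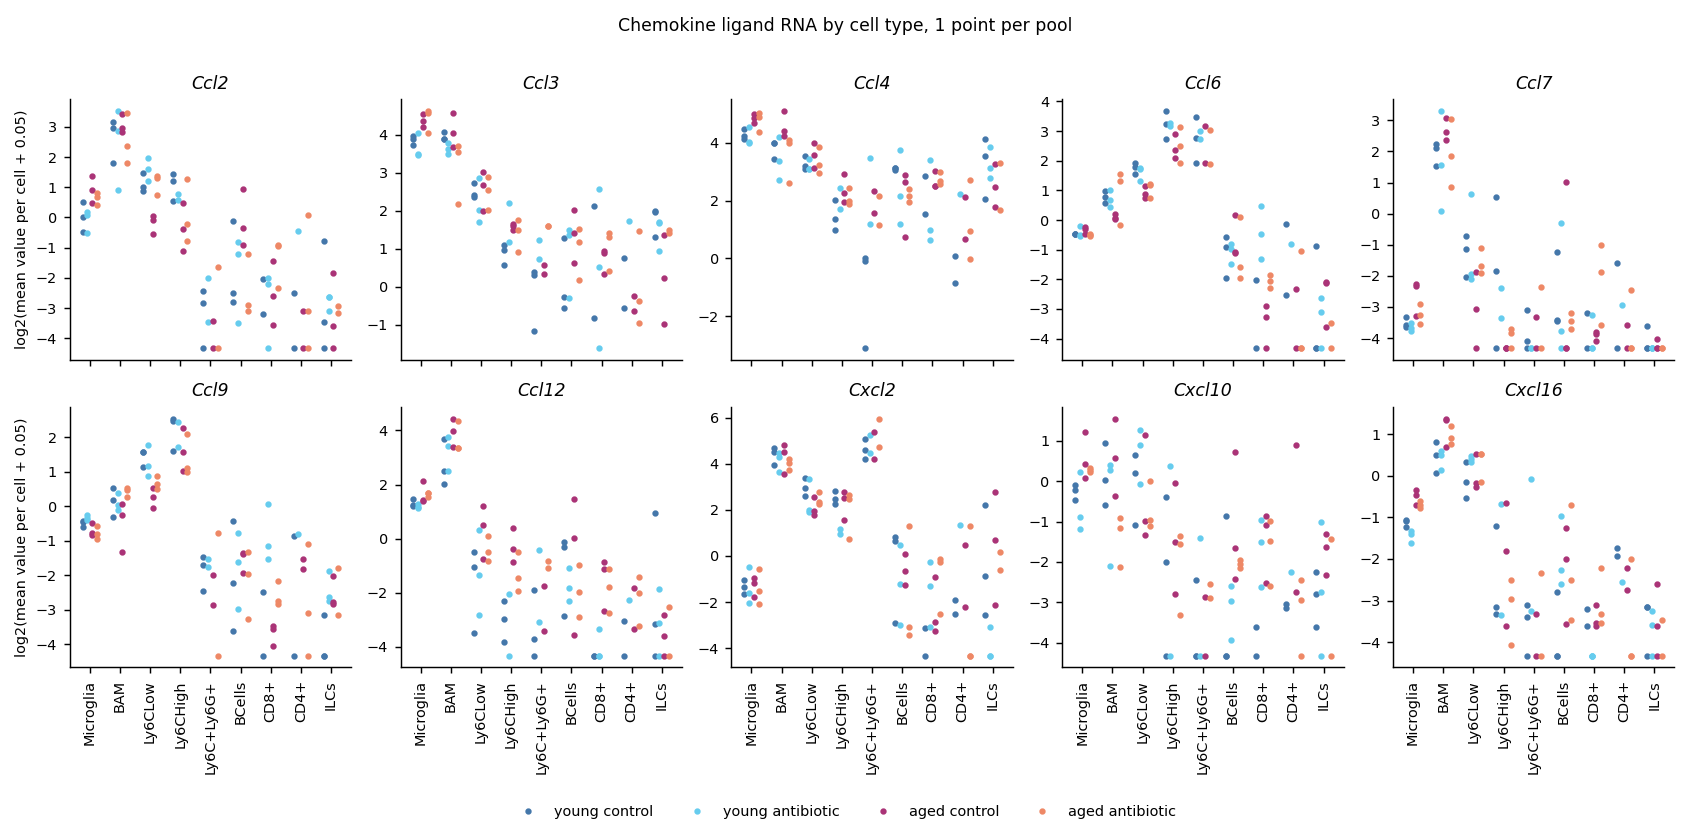
Mean corrected UMI value of each of the 10 ligands in 9 cell types, as log2(mean + 0.05), with 1 point per pool of at least 10 cells. Ccl7 and Ccl12 points of BAM lie above those of most other types, Cxcl2 is highest in Ly6C+Ly6G+ cells and BAM, and Ccl3 and Ccl4 are highest in microglia and BAM.

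Among the Ccr2 ligands, Ccl2, which draws monocytes to tissue, reached 7.11 ± 3.13 (SD, n = 12 pools) in BAM, with 46.6% of those cells above 0. It was 2.06 ± 0.955 in Ly6CLow cells, 1.42 ± 0.772 (n = 11) in Ly6CHigh cells and 1.33 ± 0.533 in microglia. BAM stood above the next type by more than the spread of the pools, while the Ly6CLow, Ly6CHigh and microglia levels did not differ beyond theirs. Because microglia made up 9403 of the 13052 cells and BAM 506, microglia still held 67.1% of all Ccl2 value and BAM 19.9%. Ccl12, a close relative of Ccl2, followed a different order. Its level was 11.7 ± 5.50 in BAM and 2.73 ± 0.612 in microglia, and both gaps, from BAM to microglia and from microglia to Ly6CLow cells (0.761), exceeded the spread. Ccl12 was above 0 in 49.8% of microglia, against 16.4% of B cells, a type taken as the background of free RNA (median raw UMI total 5070 per B cell and 6934 per microglial cell). B cells are an imperfect stand-in, since single ones reached 62 for Ccl7 and 74 for Cxcl2.

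Ccl7, the third Ccr2 ligand, was 4.88 ± 2.75 in BAM and 0.353 in Ly6CLow cells. Only 28.9% of BAM were above 0, yet these 506 cells held 69.7% of all Ccl7 value in the data. In microglia Ccl7 was above 0 in 2.45% of cells, below the 3.49% of B cells but above the 0.606% of ILCs and 1.70% of Ly6C+Ly6G+ cells. The microglial share thus did not exceed that of B cells, and whether it was free RNA was not tested. RNA of their receptor Ccr2 was highest in Ly6CHigh (5.83) and Ly6CLow cells (3.12). The CCR2 antibody gave 2.63 ± 0.161 tags per Ly6CHigh cell in 5 young pools and 1.67 ± 0.0331 per microglial cell in the same well, and the other types lay between. Ly6C+Ly6G+ cells came next to Ly6CHigh cells at 2.36 ± 0.170, although their Ccr2 RNA was 0.179, against 0.0362 in microglia. The tags therefore followed the RNA only in part.

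Ccl3 and Ccl4 were microglial and BAM ligands. Ccl3 was 17.4 ± 4.67 in microglia and 13.8 ± 4.45 in BAM (SD, n = 12 pools each), a gap within the spread, and Ly6CLow cells followed at 5.58 ± 1.58, below BAM by more than the spread. Ccl4 was 23.7 ± 6.12 in microglia and 15.9 ± 7.48 in BAM, a gap beyond the spread, and then 10.4 ± 2.56 in Ly6CLow cells and 8.60 in innate lymphoid cells (ILCs). Microglia held 90.9% of all Ccl3 value and 88.6% of all Ccl4 value. Both were also above 0 in B cells, Ccl3 in 52.4% and Ccl4 in 66.5%, against 79.9% and 81.8% of microglia.

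The Ccr1 ligands Ccl6 and Ccl9 had their highest levels in monocytes. Ccl6 was 7.46 ± 2.72 in Ly6CHigh cells (n = 11 pools) and 6.72 ± 2.60 in Ly6C+Ly6G+ cells (n = 9), which did not differ beyond the spread, and fell in steps beyond the spread to Ly6CLow cells (2.56), BAM (1.59) and microglia (0.694 ± 0.063, n = 12). Ccl9 went from 3.71 ± 1.47 in Ly6CHigh cells to 1.96 ± 0.772 in Ly6CLow cells, 1.03 ± 0.309 in BAM, 0.630 ± 0.101 in microglia and 0.274 in B cells, each step larger than the spread. In microglia 39.2% of cells were above 0 for Ccl6 and 34.2% for Ccl9, against 13.1% and 10.1% of B cells. Cells under 2000 raw UMIs made up 45.3% of aged control and 59.6% of aged antibiotic Ly6CHigh cells, against 1.23% and 1.64% in the young groups. Among cells of at least 2000 raw UMIs, Ccl6 was 10.3 in Ly6CHigh cells, against 6.83 over all of them, and 7.49 in Ly6C+Ly6G+ cells, a gap larger than the SD of 2.72. Ccl9 in Ly6CHigh cells was 5.18 in the deeper cells and 3.51 over all. Ccr1 RNA was highest in Ly6C+Ly6G+ cells (3.41).

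Cxcl2, a neutrophil attractant, was highest in the cells with neutrophil markers themselves. The level was 31.4 ± 13.9 in Ly6C+Ly6G+ cells (SD, n = 9 pools) and 18.9 ± 5.28 in BAM (n = 12), which did not differ beyond the spread, and 5.93 ± 2.37 in Ly6CLow cells. Ly6C+Ly6G+ cells, 352 in all, held 35.0% of the Cxcl2 value, and BAM 30.5%. Microglia had 9.34% of cells above 0, under the 10.3% of B cells and over the 7.14% of CD8+ cells. This share thus did not exceed that of B cells, and whether it was free RNA was not tested. The Cxcl2 receptor Cxcr2 was also highest in Ly6C+Ly6G+ cells (2.51).

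Cxcl10, the interferon-induced Cxcr3 ligand, was 1.08 ± 0.723 in Ly6CLow cells, 1.04 ± 0.483 in microglia and 1.02 ± 0.786 in BAM (SD, n = 12 pools each), and no pair of neighbours in its order differed beyond the spread. Microglia held 83.0% of its value. Cxcl16 was 1.68 ± 0.503 in BAM, 1.09 ± 0.282 in Ly6CLow cells and 0.486 ± 0.144 in microglia, each step beyond the spread. It was above 0 in 68.6% of BAM and 31.0% of microglia, against 8.01% of B cells. Receptor RNA for both was highest in T cells, Cxcr3 at 1.55 in CD8+ and 1.27 in CD4+ cells, and Cxcr6 at 2.15 in CD8+ cells, 1.98 in CD4+ cells and 1.81 in ILCs.

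For each ligand, the genes with the most similar profile were found by Pearson's r over 98 combinations of 9 types and pools among 10872 genes, as a description without a test. Points of 1 pool share a library and points of 1 type share its cells. The nearest gene to Ccl7 was Pf4 (r = 0.86), a chemokine abundant in BAM, and those nearest to Ccl12 were C1qa and C1qc (0.87 each), complement genes of microglia and macrophages. The profile of Cxcl2 was most like that of Ccr1 (0.88), Ccl2 like Ctsc (0.88) and Ccl6 like Igsf6 (0.92). Ccl3 was nearest to Jun (0.85), an AP-1 subunit, Ccl9 to Rassf4 (0.87) and Cxcl16 to Creb5 (0.87). The nearest gene to Ccl4 was Ccl3 (0.79), its neighbour with an overlapping model. Cxcl10 had no close partner, its highest value being 0.67 with Xlr. Among other pairs of ligands the r was 0.80 for Ccl2 and Cxcl16, 0.77 for Ccl3 and Ccl12, 0.75 for Ccl6 and Cxcl2, 0.71 for Ccl6 and Ccl9, and -0.04 for Ccl4 and Ccl6.

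Within microglia the ligands were spread over cells in different ways. Ccl3 had a median of 4 per cell, a 90th percentile of 53 and a highest value of 413, and Ccl4 a median of 4, a 90th percentile of 76 and a highest value of 542. The others had a median of 0. Ccl7 and Cxcl2, whose share of microglia above 0 was under that of B cells, had all of their value in the top 10% of cells (100% each over all pools). With 2.45% and 9.34% of microglia above 0 this could not be otherwise. Single microglia still reached 49 for Ccl7 and 185 for Cxcl2, and 11 and 87 microglia had a value of 10 or more. Among the other 8 ligands Cxcl10 was the most concentrated. It was also above 0 in the fewest microglia of these ligands, 15.9%, which by itself raises the share held by the top cells. The top 10% of microglia in a pool held 94.1% of its value over all pools (89.1% to 97.6% by pool), against 88.1% for Ccl2 (80.7% to 96.1%), 69.4% for Ccl12 (62.8% to 75.8%) and 49.8% for Ccl3 (41.9% to 54.2%). A value of 10 or more was found in 3529 microglia (37.5%) for Ccl3 and 3727 (39.6%) for Ccl4. The same held for 587 microglia (6.24%) for Ccl12, 297 (3.16%) for Ccl2 and 213 (2.27%) for Cxcl10. Ccl6, Ccl9 and Cxcl16 reached 10 in 17, 15 and 5 microglia, so their pool means came from many cells of low value.

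**Figure D2:**
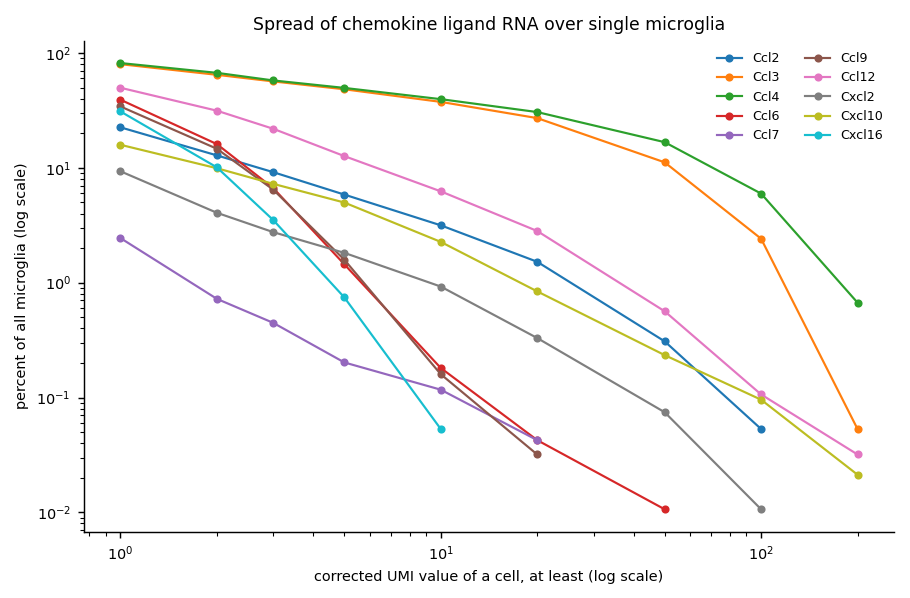
Percent of the 9403 microglia (log axis) whose corrected UMI value is at or above the value on the horizontal axis (log axis), 1 line per ligand. Ccl3 and Ccl4 are still above 10% of cells at a value of 50, Ccl2, Ccl12 and Cxcl10 run out in long tails of few cells, and Cxcl16 has no point past 10.

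Ccl3 and Ccl4 were both above 0 in 6549 microglia, and over cells their log2(value + 1) had an r of 0.631 (0.554 to 0.681 by pool). Ccl2 and Ccl12 were above 0 together in 1368 microglia, 1.30 times the 1056 that the product of their shares gives, and the ratio was above 1 in 12 of 12 pools (1.21 to 1.41). Cells with more UMIs have more of every gene above 0, and its part in these ratios was not tested.

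Microglia with a ligand value of 10 or more were set beside microglia at 0 for lists of related genes, with no test. The summed value of 20 NF-kB pathway and feedback genes was 91.8 against 70.6 for Ccl3, 93.2 against 67.1 for Ccl4, 102 against 74.9 for Ccl2 and 109 against 69.2 for Ccl12, higher in 12 of 12 pools for each. The summed value of 18 interferon-response genes was 10.2 against 3.79 for Cxcl10, in 11 of the 11 pools with at least 5 such cells, 10.8 against 3.28 for Ccl12 and 8.40 against 3.66 for Ccl2. The NF-kB sum was also higher for Cxcl10, at 107 against 75.4 in 11 of 11 pools, and the interferon sum for Ccl3, at 4.92 against 3.63. The summed value of 16 immediate early genes was 443 against 378 for Ccl12 (12 of 12 pools), 423 against 388 for Ccl2 (11 of 12), 413 against 402 for Ccl3 (10 of 12), 410 against 399 for Ccl4 (9 of 12) and 401 against 392 for Cxcl10 (7 of 11). For Cxcl2, with 87 such cells, the NF-kB sum was 135 against 76.8, higher in 7 of 7 pools. Its interferon sum was 7.80 against 4.08 (3 of 7) and its immediate early sum 385 against 394 (3 of 7), with a median of 8109 against 6869 raw UMIs. The cells at 10 or more also had more raw UMIs, a median of 7432 against 6813 for Ccl3, 7525 against 6764 for Ccl4, 7939 against 6751 for Cxcl10, 7925 against 6282 for Ccl12 and 7766 against 6744.5 for Ccl2, and the part of depth in these sums was not tested.

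Turning to age, Cxcl16 and Ccl2 rose in microglia of aged control mice against young control mice, by limma on the pool values with Benjamini-Hochberg adjustment over 8759 genes and a threshold of 0.05, and none of the 10 ligands fell. Ccl7 was also past the threshold, which makes 3, but its mean was under the minimum of 0.05 in both young groups (0.0379 and 0.0297) and it was tested only because of the aged pools, so its call is not counted as support. A total of 2.66% of all genes passed in that comparison. In 9 of 10 ligands the aged mean was higher, and the median log2 change was 0.54 over the ligands and 0.02 over all genes. For Cxcl16, Ccl3, Ccl4 and Cxcl10, all higher in the aged pools, the 2 groups did not overlap, against 19.6% of all genes. Ccl7 also lay apart, by a small margin (highest young control pool 0.0508, lowest aged control pool 0.0522), and is not counted here.

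Cxcl16, the ligand of Cxcr6, was 0.377, 0.425 and 0.422 in the young control pools and 0.669, 0.732 and 0.560 in the aged control pools. The aged values lay above all young values, with no overlap. The log2 change was 0.61 ± 0.091 (SE), a 1.53-fold difference (limma, adjusted p = 0.000594). In antibiotic pools Cxcl16 was 0.277, 0.351 and 0.327 in young and 0.560, 0.600 and 0.533 in aged mice. There too the groups were apart, and the log2 change was 0.74 ± 0.091 (limma, adjusted p = 3.8e-05). The age comparison in antibiotic pools was added after the data were seen. The call in controls was kept under each alternative run, with an adjusted p of 0.000189 to 0.00699 when 1 pool was left out and 1.48e-05 to 0.0113 under the other settings.

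Ccl2 was 0.670, 0.961 and 1.378 in young control microglia and 1.807, 2.557 and 1.334 in aged control microglia. The aged pools were higher except for the third, which lay just under the highest young pool. The log2 change was 0.90 ± 0.22 (limma, adjusted p = 0.0331, 1.86-fold). In antibiotic pools the values were 1.007, 1.089 and 0.656 in young and 1.567, 1.699 and 1.272 in aged mice, with no overlap and a log2 change of 0.71 that did not pass (limma, adjusted p = 0.0656). Ccl7 was 0.029, 0.051 and 0.034 in young and 0.052, 0.158 and 0.150 in aged control microglia. The groups did not overlap, and the fitted log2 change was 0.89 ± 0.21 (limma, adjusted p = 0.0241). Ccl7 entered the test through the aged pools alone, and the share of microglia above 0 for it was under that of B cells, as given above, so these values are a description. In antibiotic pools its log2 change was 0.43 (limma, adjusted p = 0.260). Both values in controls depended on single pools. The limma adjusted p of Ccl2 rose to 0.201 without young control pool 1, 0.102 without young control pool 2, 0.0973 without aged control pool 1 and 0.192 without aged control pool 2, and to 0.210 without the filter on low genes. That of Ccl7 rose to 0.113 without young control pool 1, 0.0821 without young control pool 3, 0.157 without aged control pool 2 and 0.124 without aged control pool 3, and to 0.167 without the filter, 0.110 in cells of 4000 to 12000 raw UMIs and 0.0759 in cells of at least 2000 raw UMIs.

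Ccl3 was 13.1, 14.9 and 15.6 in young control microglia and 20.6, 23.2 and 18.4 in aged control microglia. No aged pool was as low as a young one. Its log2 change of 0.51 ± 0.15 did not pass in controls (limma, adjusted p = 0.0812). In antibiotic pools it was 11.1, 16.5 and 11.2 in young and 16.6, 24.5 and 23.6 in aged mice, again apart, and there Ccl3 rose by a log2 change of 0.74 ± 0.15 (limma, adjusted p = 0.00483, 1.67-fold). Ccl4 was 18.7, 17.7 and 22.3 in young and 29.2, 32.1 and 25.6 in aged control microglia, without overlap. The log2 change of Ccl4 was 0.56 ± 0.16 (limma, adjusted p = 0.0644) in controls and 0.58 ± 0.16 (adjusted p = 0.0312) in antibiotic pools, where 1 aged pool lay below the highest young one. In antibiotic pools the Ccl4 call was lost without young antibiotic pool 1 or 3 (limma, adjusted p = 0.120 and 0.135) or aged antibiotic pool 2 or 3 (0.157 and 0.110), and with only the groups compared in the fit (0.0634), and the calls of Ccl3 and Ccl4 were lost without the filter on low genes (0.0572 and 0.158).

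Ccl12 was 2.25, 2.71 and 2.33 in young control and 2.63, 4.31 and 2.60 in aged control microglia, where 1 aged pool was well above the others and the groups overlapped. Its log2 change was 0.34 ± 0.13 in controls (limma, adjusted p = 0.235) and 0.45 ± 0.13 in antibiotic pools (adjusted p = 0.0472), where Ccl12 rose. That call was lost without any 1 of the 6 antibiotic pools (limma, adjusted p = 0.0608 to 0.140) and without young control pool 1 or 3 (0.0568 and 0.0557), without the filter on low genes (0.185) and with a pseudocount of 0.5 (0.0574). Cxcl10 was 0.675, 0.810 and 0.891 in young and 1.288, 2.273 and 1.000 in aged control microglia. The groups were apart, with the widest spread in the aged pools, and the log2 change was 0.83 ± 0.26 (limma, adjusted p = 0.131). In antibiotic pools the log2 change of Cxcl10 was 0.89 (limma, adjusted p = 0.0517).

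Ccl9 went the other way. It was 0.678, 0.702 and 0.611 in young control and 0.663, 0.538 and 0.509 in aged control microglia, overlapping, with a log2 change of -0.21 ± 0.095 (limma, adjusted p = 0.356). In antibiotic pools it was 0.738, 0.708 and 0.795 in young and 0.473, 0.525 and 0.625 in aged mice, which lay apart, and Ccl9 fell by 0.44 ± 0.095 on the log2 scale (limma, adjusted p = 0.00898, and 0.0549 without the filter on low genes). Ccl6, the other Ccr1 ligand, was 0.673 ± 0.00783 in young and 0.745 ± 0.0619 in aged control microglia (SD, n = 3 pools) and did not pass (limma, log2 change 0.13, adjusted p = 0.526). Across the antibiotic pools 5 of 10 ligands passed, Cxcl16, Ccl3, Ccl4 and Ccl12 higher and Ccl9 lower in aged mice, against 6.15% of all genes. The number was 3 without young antibiotic pool 1 or 3 or aged antibiotic pool 2 or 3, and 1 without the filter. The groups lay apart for 6 ligands, 5 higher and 1 lower, against 22.2% of all genes. Whether the age difference itself differed between the arms is the same contrast as the difference of the antibiotic change between ages, for which no ligand passed.

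**Figure D3:**
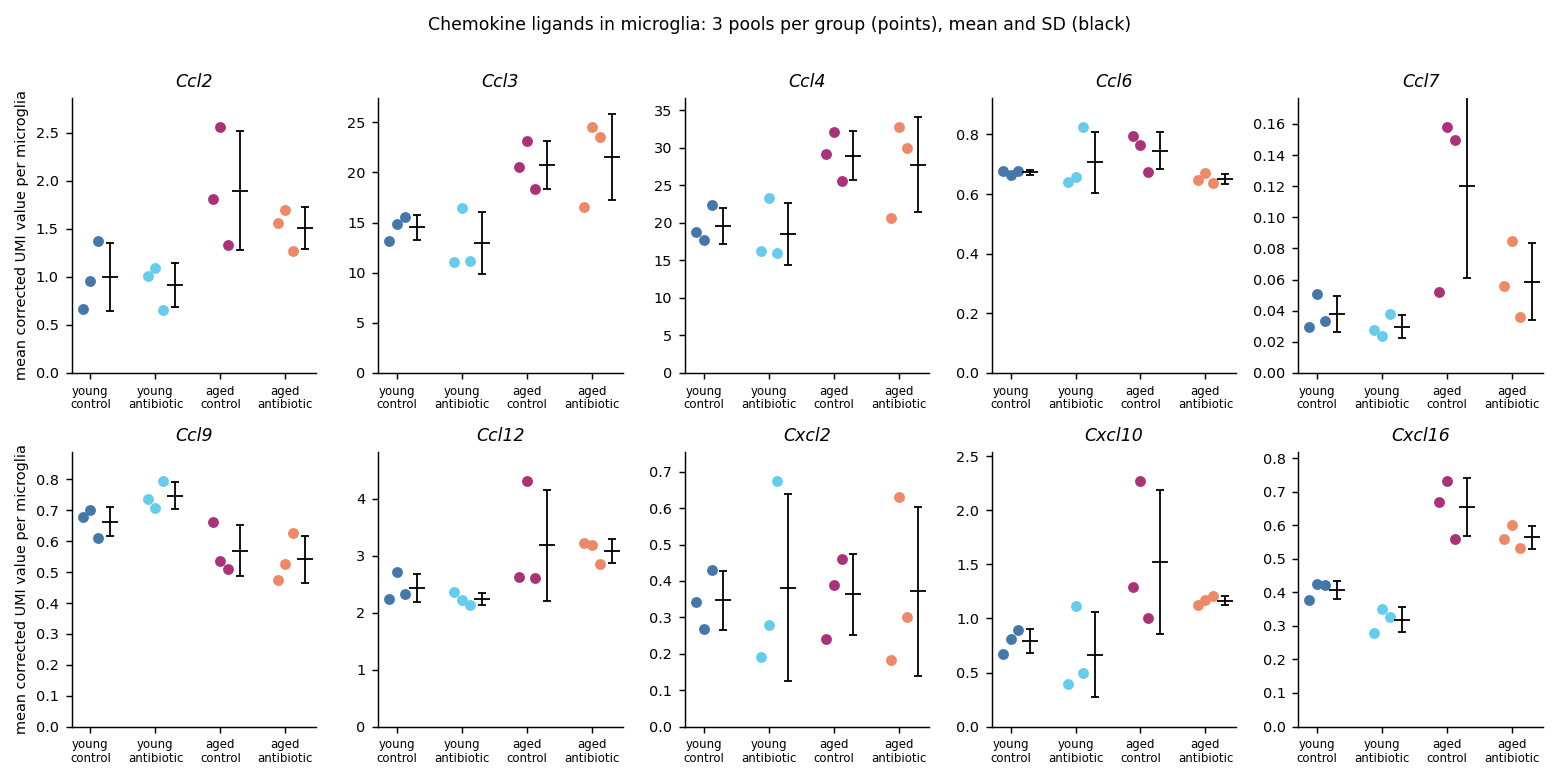
Mean corrected UMI value of each ligand in microglia, 1 point per pool with the mean and SD of the 3 pools of each group (vertical axes end at different values by gene). For Cxcl16 all aged pools lie above all young pools, and for Ccl9 the aged antibiotic pools lie under the young antibiotic pools.

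The number of calls in controls rested on single pools. It was 1 without young control pool 1 or aged control pool 2, 6 without young antibiotic pool 2 and 5 without aged antibiotic pool 1. Markers of other cells were read in the same pools. The 6 BAM markers were each under 0.05 and summed to 0.0551 to 0.0758 in young and 0.0627 to 0.0631 in aged control microglia. The neutrophil markers summed to 2.24 to 6.30 in young and 0.627 to 0.707 in aged control microglia, and the T cell markers to 0.0143 to 0.0217 and 0.0476 to 0.115. The median raw UMI total per microglial cell was 6780.5 to 7193 in young control and 7054.5 to 7219 in aged control pools. The part of these values in the age differences was not tested.

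Genes of the pathways around the ligands moved in part with age, read against the 2.66% of all genes that passed in controls and the 6.15% in antibiotic pools. Of 18 interferon-response genes 13 were tested in microglia, and 5 rose in aged controls (Ifi27l2a, Ifit3, Ifitm3, Oasl2 and Bst2, log2 changes 0.75, 0.75, 0.57, 0.47 and 0.30) and none fell, with a median of 0.39 over the list. In antibiotic pools 11 of the 13 rose with age. Oasl2, Usp18 and Ifit2 had means under 0.05 in young microglia and were tested only because of the aged pools, so these counts are a description. Of the 20 NF-kB pathway and feedback genes 3 rose in controls, Tnf, a cytokine (log2 change 0.80), and the feedback regulators Nfkbid (0.65) and Ier3 (0.42), and none fell. Their median was 0.10, against 0.02 over all genes. In antibiotic pools 5 of the 20 rose with age (Tnf, Il1b, Nfkbid, Ier3 and Relb) and none fell. Immediate early genes were mixed, with Egr2 and Egr3 higher and Klf4, Klf2, Fosb and Dusp1 lower among 16 in controls, and in antibiotic pools 1 rose and 2 fell. Among the other chemokine ligands 2 of 27 could be tested, and Ccl5, a T cell attractant, rose by a log2 change of 1.17 in controls and 0.94 in antibiotic pools. Its level was low, 0.0813 in young and 0.257 in aged control microglia, against 65.4 in CD8+ cells. CD8+ cells numbered 53 in young control and 270 in aged control mice, and their part in the Ccl5 change was not tested. Of 23 chemokine receptors 4 could be tested, and none changed with age in controls, while Ccr1, the receptor of Ccl6 and Ccl9, fell by 0.82 on the log2 scale in antibiotic pools, from a low level (0.104 to 0.0369) that met the minimum only through the young pools. Neither of the 2 tested proteases that cleave chemokines, out of 4, changed with age in controls.

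Antibiotic treatment, the comparison the study was built around, changed 1 of the 10 ligands in microglia, in the mean of both ages. In young mice none of the 10 passed (limma, lowest adjusted p = 0.181), while 0.137% of all genes did. In aged mice none passed either (limma, lowest adjusted p = 0.115, for Ccl7), while 3.23% of all genes did. Log2 changes of the ligands ran from -0.36 to 0.16 in young and from -0.60 to 0.04 in aged mice. Groups did not overlap for 2 ligands in young mice (Cxcl16 lower and Ccl9 higher with antibiotics; 16.1% of all genes) and for 1 in aged mice (Ccl6 lower; 22.1% of all genes).

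Over both ages 1 ligand changed with antibiotics, against 5.4% of all genes. It was Cxcl16, whose group means were lower with antibiotics at each age. The young antibiotic pools lay under every young control pool, while in aged mice 1 antibiotic pool lay above the lowest control pool and 1 was level with it. Group means were 0.408 ± 0.0269 and 0.318 ± 0.0375 in young control and young antibiotic microglia, and 0.654 ± 0.0868 and 0.564 ± 0.0340 in aged control and aged antibiotic microglia (SD, n = 3 pools each). Averaged over ages Cxcl16 fell by 0.25 ± 0.064 on the log2 scale, a 1.19-fold lower level (limma, adjusted p = 0.0264). By age alone the log2 change was -0.32 in young (limma, adjusted p = 0.181) and -0.19 in aged mice (adjusted p = 0.275). Leaving out 1 pool gave limma adjusted p-values of 0.00831 to 0.0809. The call was lost without young control pool 2 (0.0645) or 3 (0.0687), young antibiotic pool 1 (0.0729), aged control pool 1 (0.0574) or 2 (0.0809) or aged antibiotic pool 3 (0.0533), and without the filter on low genes (0.106). In 9 of 10 ligands the mean over both ages was lower with antibiotics, with a median log2 change of -0.08 over the ligands and -0.01 over all genes.

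No ligand had an antibiotic change that differed between ages (limma, lowest adjusted p = 0.768, for Ccl6), and 0% of the 8759 genes did. For Cxcl16 that difference was 0.13 on the log2 scale (limma, adjusted p = 0.92). In the surrounding lists, Il1a, an NF-kB-driven cytokine, fell by 0.45 on the log2 scale over both ages (limma, adjusted p = 0.007). Dusp1, an immediate early phosphatase, rose by 0.22 over both ages. In aged mice it rose by 0.42 (limma, adjusted p = 0.00413), while its young means were 22.4 in control and 22.9 in antibiotic pools. In young mice Ifi27l2a fell by 0.63 (limma, adjusted p = 0.047), while its aged means were 0.591 in control and 0.788 in antibiotic pools. Oasl2, of the same list and at a low level, rose with antibiotics in aged mice by 0.42 (limma, adjusted p = 0.0271), from 0.0751 to 0.117. No interferon-response gene passed over both ages.

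**Figure D4:**
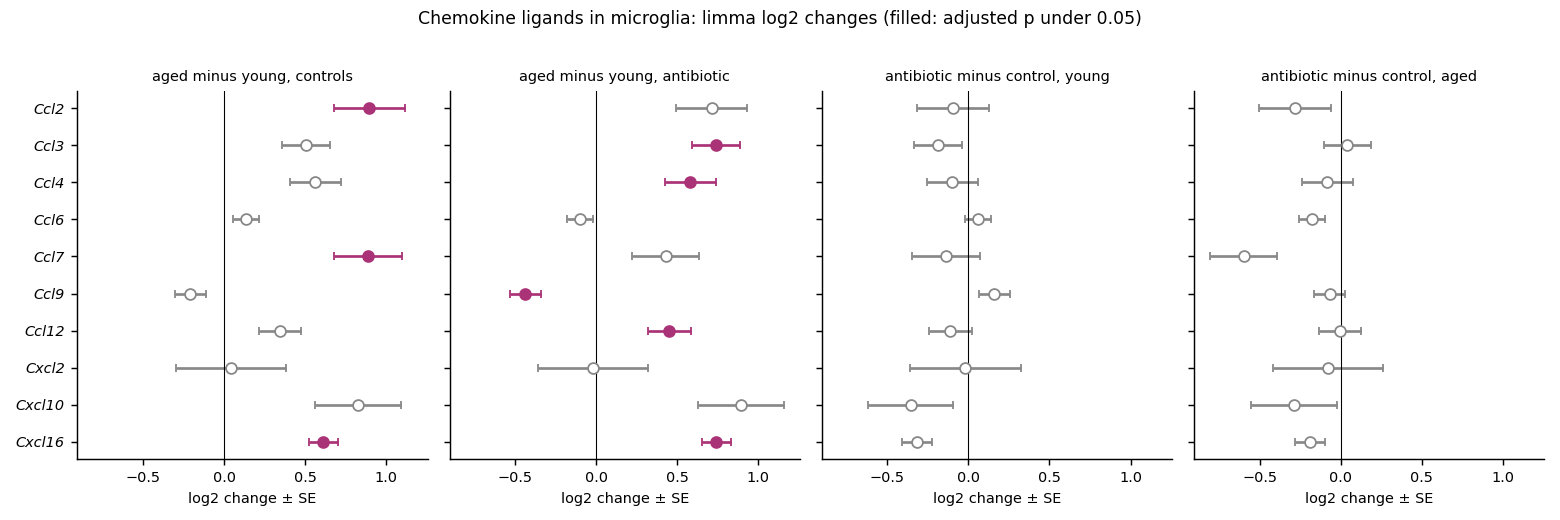
Log2 change (± SE) of the 10 ligands in microglia for 4 comparisons, aged against young in controls and in antibiotic pools and antibiotic against control at each age, with filled points at a limma adjusted p under 0.05. Most age changes lie above 0, with Cxcl16 filled in both, and no antibiotic change at a single age is filled.

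In the other cell types 7 could be tested (at least 10 cells in a pool and 2 such pools per group), which gave 66 tests of a ligand in each comparison. CD4+ T cells and NK cells had too few cells, and Cxcl16 in CD8+ cells and ILCs and Ccl7 in ILCs and Ly6C+Ly6G+ cells were under the minimum level. Pools under 10 cells were dropped, 1 each for CD8+, Ly6CHigh and ILCs and 3 for Ly6C+Ly6G+ cells. No ligand passed for antibiotics in these types. The lowest limma adjusted p was 0.0638 in young mice, where 0.033% of gene tests in these types passed. It was 0.205 in aged mice (0.0347% passed) and 0.116 in the mean of the ages (0.0139%). In the contrast of aged with young changes it was 0.462 (0.00694%). With age 4 of 66 passed in controls, all lower in aged mice, against 0.295% of gene tests. In antibiotic pools 0 of 66 passed (limma, lowest adjusted p = 0.0827), against 0.61% of gene tests.

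Of those 4 changes 3 were in Ly6CLow cells, where Ccl2, Ccl9 and Ccl6 fell with age in controls, against 0.755% of all genes tested in that type. Ccl2 was 2.74, 1.78 and 1.96 in young control pools and 0.629, 0.986 and 0.884 in aged control pools. All aged pools lay below all young ones, and Ccl2 fell by 1.32 ± 0.24 on the log2 scale, a 2.50-fold lower level (limma, adjusted p = 0.0122). This is the opposite of the direction of Ccl2 in microglia. In aged antibiotic pools Ccl2 was 2.56, 1.62 and 2.40, all above the aged controls, but the log2 change of 1.34 ± 0.24 did not pass (limma, adjusted p = 0.205).

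Ccl9 was 2.93, 2.17 and 2.94 in young control and 0.914, 1.15 and 1.41 in aged control Ly6CLow cells. Ccl6 was 3.76, 2.88 and 3.40 in young control and 1.63, 1.81 and 2.14 in aged control Ly6CLow cells. Neither gene had an overlap between the ages. Ccl9 fell by 1.18 ± 0.22 (limma, adjusted p = 0.0171, 2.27-fold lower) and Ccl6 by 0.83 ± 0.18 on the log2 scale (adjusted p = 0.0411, 1.78-fold lower). With Cxcl2, 4 ligands had groups that did not overlap, against 20.6% of all genes, and the median log2 change was -0.57 over the ligands and -0.21 over all genes in this type.

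Sequencing depth moved with age in Ly6CLow cells. Cells under 2000 raw UMIs made up 4.70% of young control and 32.1% of aged control Ly6CLow cells, and the median raw UMI total was 11010 and 6546. Among cells of at least 2000 raw UMIs, an alternative chosen after the data were seen, Ccl2 was 2.84, 1.97 and 2.00 in young and 0.905, 1.58 and 1.13 in aged control pools. Ccl9 and Ccl6 also kept young control pools above aged ones in these cells, but the log2 changes shrank to -0.90 for Ccl2, -0.63 for Ccl9 and -0.33 for Ccl6, and none passed (limma, adjusted p = 0.955 for each). The number of calls was also 0 without young control pool 1 or aged control pool 1, and 1 without young control pool 3 or aged control pool 2. The Ccl6 call was also lost without young control pool 2 or young antibiotic pool 3 (limma, adjusted p = 0.0551 and 0.0562), without the filter on low genes (0.0707) and with a pseudocount of 0.5 (0.0512). Marker sums of other cells moved too. The ILC markers did not overlap between the ages, at 0.341 to 0.948 in young control and 2.33 to 5.11 in aged control Ly6CLow cells. The BAM markers, of the type with the highest Ccl2, went from between 1.96 and 3.00 to between 0.657 and 1.97, and the dendritic cell markers from between 3.72 and 7.12 to between 1.89 and 5.03. The neutrophil markers, at 1.40 to 2.22 and 1.13 to 46.8, and the B cell markers, at 0.90 to 1.26 and 1.26 to 18.5, overlapped but reached far higher in aged pools. The part of these cells in the changes of Ccl2, Ccl9 and Ccl6 was not tested.

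**Figure D5:**
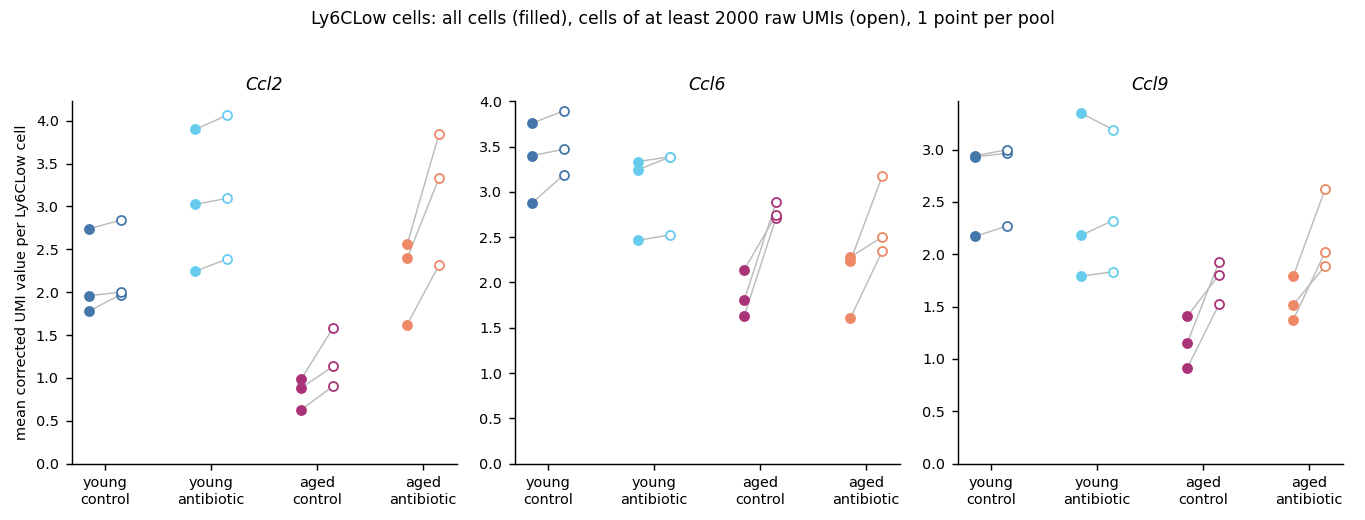
Mean corrected UMI value of Ccl2, Ccl6 and Ccl9 in Ly6CLow cells of each pool, over all cells (filled) and over cells of at least 2000 raw UMIs (open). In aged pools the open points lie above the filled ones, and in young pools the 2 nearly coincide.

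The fourth change was Ccl3 in ILCs, against 0.912% of all genes tested there. Ccl3 was 3.84, 2.44 and 3.97 in young control pools and 0.455, 2.51 and 1.13 in aged control pools. Aged pools 1 and 3 were low and aged pool 2 overlapped the young range. Ccl3 fell by 1.56 ± 0.37 on the log2 scale (limma, adjusted p = 0.0429), but not with a pseudocount of 0.5 (0.0528) or without the filter on low genes (0.123). The call was lost without any 1 of young control pools 1 and 3, aged control pools 1 and 3, the 3 young antibiotic pools and aged antibiotic pools 1 and 3 (limma, adjusted p = 0.0582 to 0.232), and without aged control pool 1 the log2 change was -0.97. These cells carried NK cell markers, which summed to 24.2 to 48.6 in young control ILCs and 2.09 to 11.5 in aged control ILCs. Markers of microglia, the type with the highest mean Ccl3, summed to 2.36 to 7.25 in young control and 1.61 to 3.45 in aged control ILCs, which overlapped. The ILC markers went the other way, at 4.06 to 6.04 in young control and 8.22 to 18.5 in aged control pools. The part of these markers in the Ccl3 change was not tested.

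BAM, which had the highest level of 4 ligands, gave no call, with 17 to 62 cells per pool. Ccl12 was 12.7, 4.06 and 5.60 in young control BAM and 21.5, 10.4 and 15.5 in aged control BAM, overlapping at 1 young pool (log2 change 1.19 ± 0.34, limma, adjusted p = 0.418). Cxcl10 was 0.730, 1.45 and 2.87 in aged control BAM and 0.394, 0.477 and 0.180 in aged antibiotic BAM. These pools lay apart, yet the log2 change of -1.996 ± 0.51 did not pass (limma, adjusted p = 0.205). Ccl4 was 34.0, 18.9 and 21.4 in aged control and 6.03, 15.8 and 17.1 in aged antibiotic BAM, also apart, with a log2 change of -1.02 ± 0.32 (limma, adjusted p = 0.363). Ccl9 lay apart in the other direction, at 0.351, 1.00 and 0.790 in aged control and 1.15, 1.39 and 1.34 in aged antibiotic BAM, and did not pass either. Ccl2 in BAM ran from 3.41 to 8.85 in young control, 1.83 to 11.4 in young antibiotic, 6.98 to 10.6 in aged control and 3.48 to 10.97 in aged antibiotic pools, so the groups overlapped.

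Another chemokine, Cxcl13, which attracts B cells through Cxcr5 and is on the list of other ligands, was listed at 0 in all 6 young pools of BAM, and was 1.92, 4.35 and 0.145 in aged control and 11.03, 3.82 and 4.02 in aged antibiotic pools. It met the minimum level only through the aged pools, so neither a test nor a fold is given. In BAM Ccr2 fell by 2.00 on the log2 scale with age in controls (limma, adjusted p = 0.012), and Tnf fell by 1.02 with antibiotics over both ages (adjusted p = 0.038).

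Cxcl2 in Ly6C+Ly6G+ cells, its highest type, was 24.0, 18.2 and 33.5 in young control pools and 22.1 and 37.7 in young antibiotic pools. It was 18.6 and 41.0 in aged control pools and 61.6 and 26.2 in aged antibiotic pools. The pools of every group overlapped, with log2 changes for antibiotics of 0.24 ± 0.42 in young (limma, adjusted p = 0.915) and 0.54 ± 0.46 in aged mice (adjusted p = 0.682). The lowest adjusted p for antibiotics in any other type was that of Ccl9 in CD8+ cells of young mice, with a log2 change of 2.54 ± 0.56 (limma, adjusted p = 0.0638), and Ccl6 followed at 2.74 ± 0.63 (adjusted p = 0.0645), from pools of 15 to 31 cells. Young control pool 2 was left out and young control pool 3 was at 0 for both, so these changes lean on the 0.05 added before the log. Ccl9 was above 0 in 5.08% of CD8+ cells and Ccl6 in 5.77%, against 10.1% and 13.1% of B cells.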

How the data were processed

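CITE-seq data of 12 pools of mouse brain immune cells were used. Per the submitters' processing notes, the tools were Cell Ranger 3.0.2 and Seurat 3.0.1 and the build mm10. The deposited RNA table holds SCTransform-corrected UMI values, a score for each gene in each cell, whose sum equalled the deposited SCT total in all 13052 cells and the raw total in 62, so no count model was used. Values are raised in shallow cells (lowest raw total 333, lowest corrected total 4125), and 1447 cells had under 2000 raw UMIs. Antibody tags and raw UMI totals are counts as deposited. Cell types are the authors' labels, and 35 metadata columns were not used. The covariates of the correction and the treatment of doublets are not stated in the labels, and no doublet caller was run.

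A pool's mean over the cells of a type was taken as log2 after adding 0.05, which understates changes of low genes. Genes averaging 0.05 or more across pools were tested with limma 3.58.1 (R 4.3.3, trended prior variance) in 1 fit of all pools, with Benjamini-Hochberg adjustment within each comparison at 0.05. Other types needed at least 10 cells in a pool and 2 such pools per group. The procedure was tested on simulated data. Antibiotic was compared with control at each age, over both ages and between ages, and aged with young in controls; age in antibiotic pools was added later. A step between types counted as beyond the spread when the difference of their means exceeded the larger of their SDs over pools.

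Named genes were all 10 ligands, the most similar genes of each, and from each gene list up to 6 past the threshold per comparison. The ligands and lists were chosen with earlier results of these data known. The lists were 23 receptors, 27 other ligands, 20 NF-kB, 16 immediate early and 18 interferon-response genes and 4 proteases. Promoters were those of the RefSeq table. Results for 1 gene of the lists are not reported here.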

Additional observations from a re-analysis of the deposited data

How the results depend on the processing

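Alternatives were a pseudocount of 0.5, no filter on low genes, the mean over cells of log2(value + 1), cells of 4000 to 12000 raw UMIs, single cells capped at the 99th percentile, a fit of only the groups compared, a minimum of 20 cells, and each pool left out in turn. Cells of at least 2000 raw UMIs, and age compared in antibiotic pools, were chosen after the data were seen. No paired analysis was possible because control and antibiotic pools carried different hashtag numbers and no label pairs them. Ccl7 and Cxcl2 in microglia were at or under the share of B cells above 0, and in Ly6CHigh cells up to 59.6% of a group was under 2000 raw UMIs.

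The number of ligands called in microglia for age in controls was 3 as reported, Ccl7 included. It was 1 with no filter, 7 with the mean of logs, 6 with capped cells, 6 with only the groups compared, and 1 to 6 with a pool left out. For age in antibiotic pools it was 1 with no filter and 3 to 7 with a pool left out. For antibiotics it was 0 over both ages with no filter and 0 to 2 with a pool left out, and in aged mice 1 with the mean of logs and 0 to 1 with a pool left out. More genes enter the adjustment with no filter; the cause of the other changes was not tested.

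Ly6CLow calls for age in controls were 0 among cells of at least 2000 raw UMIs and 0 to 3 with a pool left out. Ly6CHigh cells gave 1 for age in antibiotic pools among cells of at least 2000 raw UMIs. ILCs gave 0 for age in controls with a pseudocount of 0.5 and with no filter, and with a pool left out 0 to 1 there, for antibiotics in aged mice and for age in antibiotic pools. With a pool left out CD8+ cells gave 0 to 3 for antibiotics in young mice, 0 to 2 over both ages and 0 to 1 for age in each arm, BAM 0 to 1 for antibiotics in aged mice and for age in controls, and Ly6C+Ly6G+ cells 0 to 1 for antibiotics in young mice.

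Directions turned only for changes that did not pass. In aged microglia the antibiotic log2 change of Ccl12 became 0.057 with the mean of logs, 0.026 in cells of 4000 to 12000 raw UMIs, 0.020 with capped cells and 0.031 in cells of at least 2000 raw UMIs, and in young microglia that of Ccl6 became -0.0068 in cells of 4000 to 12000 raw UMIs. With a pool left out, the antibiotic change in young microglia ran from -0.34 to 0.15 for Ccl2 and from -0.050 to 0.12 for Ccl6. In aged microglia it ran from -0.54 to 0.036 for Cxcl10, -0.13 to 0.23 for Ccl12, -0.17 to 0.036 for Ccl9, -0.061 to 0.22 for Ccl3 and -0.21 to 0.12 for Ccl4. The age change of Ccl6 in antibiotic pools ran from -0.16 to 0.0078. Among cells of at least 2000 raw UMIs the level of Ccl6 in Ly6CHigh cells was 10.3 (7.46 as the mean of pools, 6.83 over all cells), that of Ccl9 5.18 (3.71 and 3.51), and that of Ccl6 in microglia 0.770 (0.694 and 0.700).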
